A study of Arabidopsis thaliana with 20 samples.

Results

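Root gene expression was compared between the arr1/12 double mutant and wild type (WT) of Arabidopsis thaliana. The arrays were chosen by their genotype and treatment labels, which gave 2 arrays of untreated arr1/12 and 2 arrays of untreated WT, 4 of the 20 arrays in the series. The arr1/12 plants carried T-DNA insertions in ARR1 and ARR12 (loss-of-function alleles arr1-3 and arr12-1), while WT was the Col-0 accession with no insertion. All seedlings were 10 days old and had grown on vertical agar plates at a constant temperature under continuous light, and roots were cut off close to where they join the hypocotyl. The 16 other arrays hold 2 each of untreated arr1, arr10, arr12, arr1/10, arr10/12, and arr1/10/12, and of mock-treated WT and WT given 5 μM N6-benzyladenine (BA), a cytokinin (CK), for 1 hour. Total RNA was labelled with Cy3 and hybridized to 1-colour Agilent arrays, with 1 biological replicate per array. Each genotype was a single combination of alleles, and whole roots were used, so that values are averages over all root cell types.

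Cytokinins are plant hormones that act through a phosphorelay. Receptor histidine kinases such as WOL pass phosphate by way of phosphotransfer proteins to the type-B response regulators, which are transcription factors that bind DNA and switch on CK-responsive genes. The type-A response regulators are among the best known of these genes, and their products lack the DNA-binding domain and dampen the signal. Other targets encode CK oxidases, which break the hormone down, and SHY2, a repressor of auxin signaling that promotes cell differentiation at the border of the root meristem. ARR1, ARR10, and ARR12 are the type-B regulators known to carry most of the CK response of the root, and in arr1/12 only ARR10 of these remains intact.

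The values are log2 signals after background subtraction and quantile normalization, and 1 unit is a 2-fold difference. Between 71.4% and 78.2% of the spots were well above background on the 16 untreated arrays. The arrays of a group ranked the probes alike, with a Spearman's rho of 0.994 in WT and 0.995 in arr1/12 and the lowest value, 0.984, in arr1/10/12. The untreated arrays filled 2 slides, replicate 1 of each genotype on the first and replicate 2 on the second, and the replicate number was therefore a block in the fit. The arrays list probes and not genes. A probe could be named for 2072 genes, 1997 from a list of lower genes and 75 from a list of higher genes. These were picked as changed in at least 1 mutant on these same arrays, many of them in arr1/12 itself. Their direction in arr1/12 is therefore not independent evidence. Markers of root identity and of shoot tissue above the cut were not among the named genes and are not analysed here.

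The mutated genes were examined on each array first. ARR1 (AT3G16857) had a log2 signal of 11.98 and 12.01 on the WT arrays and 7.82 and 7.94 on the arr1/12 arrays. ARR12 (AT2G25180) had 11.78 and 11.71 in WT and 4.78 and 5.45 in arr1/12, with replicate 2 alone well above background. Both genes were thus low on both arr1/12 arrays, as their label says, with no overlap between the groups. ARR1 fell by 4.11 on the log2 scale, which is 17.3-fold (standard error 0.10, adjusted p = 1.26e-07 from limma), and ARR12 fell by 6.63, which is 98.9-fold (standard error 0.29, adjusted p = 1.03e-05). The size of the ARR12 fall depended on the background correction, with log2 fold changes of −4.97 under normexp and −5.28 in the authors' value table. ARR10 (AT4G31920), the intact regulator, had 13.58 and 13.24 in WT and 13.69 and 13.65 in arr1/12, and its log2 fold change of 0.26 did not pass the test (standard error 0.29, adjusted p = 0.602).

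**Figure D1:**
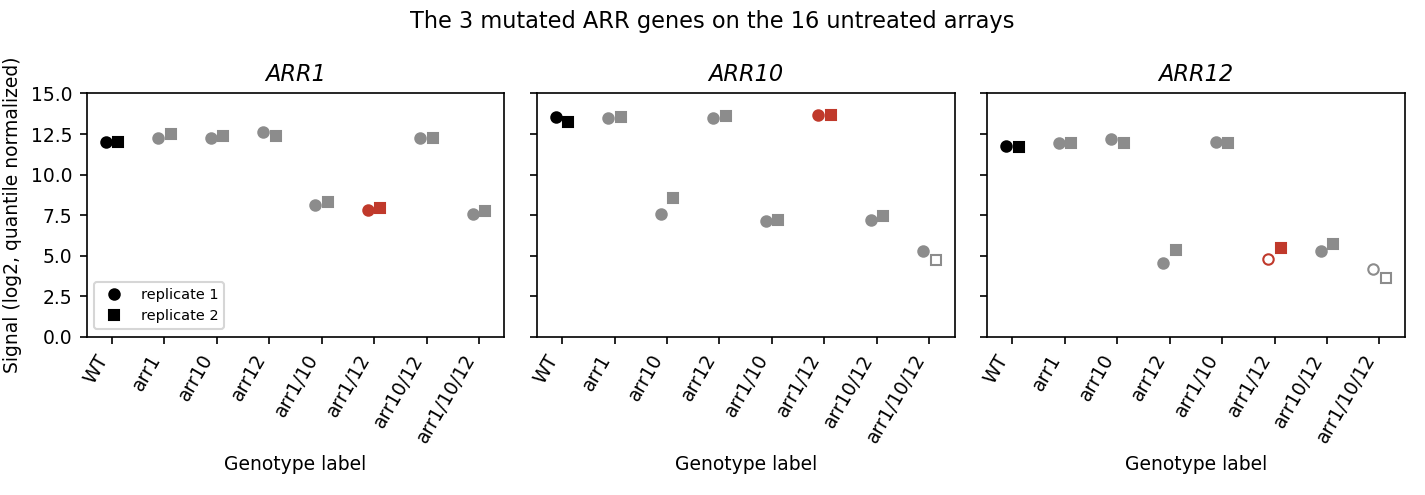
Log2 signal of ARR1, ARR10, and ARR12 on the 16 untreated arrays, with WT in black, arr1/12 in red, and the other mutants in grey (circle, replicate 1; square, replicate 2; open, not well above background). ARR1 and ARR12 are low on both arr1/12 arrays, while the arrays labelled arr1 show ARR1 at 12.26 and 12.51, no lower than WT.

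The arrays labelled arr1 did not show the loss of ARR1. Their ARR1 signals were 12.26 and 12.51, above both WT arrays, whereas ARR1 was low on every array labelled arr1/10, arr1/12, or arr1/10/12, where the highest value was 8.28. The arrays labelled arr12 had ARR12 at 4.56 and 5.33, as low as in arr1/12. Comparisons with the library labelled arr1 are given below under that label only, and no direction drawn from them is given as an effect of ARR1. Among genes picked after their values were seen, ASL9 went with the labels. Its log2 fold change was −1.04 on the arrays labelled arr1 (adjusted p = 0.0275), −1.41 in arr1/10, and −1.33 in arr1/12, but 0.06 in arr12 and −0.19 in arr10/12. EXPB2 was likewise not well above background on any array labelled arr1, arr1/10, or arr1/12, and was well above it on all arrays of arr12 and arr10/12. Its log2 fold change of −2.34 on the arrays labelled arr1 did not pass the test (adjusted p = 0.0652 from limma). Both genes had been picked as changed on the arrays labelled arr1. Their match with the labels was thus set by that choice and cannot tell which genotype those arrays held.

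Of 33834 probes tested, 1152 (3.40%) were lower in arr1/12 than in WT and 1105 (3.27%) were higher, at a Benjamini-Hochberg adjusted p under 0.05 from limma. Beyond 2-fold, 224 probes were lower and 127 were higher. The median log2 fold change of all probes was −0.0046. Both arr1/12 arrays lay below both WT arrays at 24.1% of the probes and above them at 25.9%. Only part of the called probes could be named, with 516 genes among the lower and 32 among the higher probes, and 1073 of the higher probes have no gene name. The counts depended on single arrays and on the block. They were 153 lower and 164 higher without arr1/12 replicate 1, 98 and 118 without arr1/12 replicate 2, 481 and 394 without WT replicate 1, and 110 and 114 without WT replicate 2. They were 292 lower and 237 higher with no replicate block, and 2067 and 2069 when the arr1/10/12 arrays were left out of the fit.

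The type-A response regulators were lower in arr1/12. Of 8 type-A genes that could be named, out of 10, 7 were lower and none was higher, with a median log2 fold change of −0.85 beside −0.0046 for all probes and −0.43 for the list of lower genes from which they were named. ARR16 and ARR17 had the deepest falls. ARR16 (AT2G40670) had a log2 signal of 7.91 and 8.0 in WT and 3.38 and 2.43 in arr1/12. It was bright on both WT arrays and not well above background on either arr1/12 array. The difference was at least 22.7-fold (adjusted p = 0.000378), where the bound sets each dim array at the lowest signal that was well above background on it or at the gene's own value, whichever is higher. Some probes were not well above background at signals above that lowest one, so such bounds are approximate. Where the gene's own value was the higher on both dim arrays, the plain fold is given below and can overstate the difference. ARR17 (AT3G56380) had 5.78 and 5.43 in WT and 2.34 and 2.28 in arr1/12. It too dropped to background on both arr1/12 arrays, by at least 6.38-fold (adjusted p = 0.00172). The calls of ARR16 and ARR17 held in all 4 fits that left out 1 array of arr1/12 or WT.

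The other type-A genes stayed well above background in arr1/12. ARR15 (AT1G74890) had a log2 signal of 8.05 and 8.09 in WT and 6.37 and 6.63 in arr1/12, a fall of 2.97-fold (standard error 0.23 on the log2 scale, adjusted p = 0.0117). ARR5 (AT3G48100), long used as a reporter of CK signaling, had 11.63 and 11.82 in WT and 10.95 and 10.78 in arr1/12 (1.81-fold lower, adjusted p = 0.00604). Both arr1/12 arrays lay below both WT arrays for each of these genes. ARR4 (AT1G10470) was 1.59-fold lower (adjusted p = 0.00567), ARR6 (AT5G62920) 1.79-fold (adjusted p = 0.00906), and ARR7 (AT1G19050) 1.69-fold (adjusted p = 0.0185). ARR3 (AT1G59940) had 10.32 and 10.51 in WT and 10.03 and 10.18 in arr1/12, and its log2 fold change of −0.31 did not pass the test (adjusted p = 0.149), although the groups did not overlap. The number of type-A genes called was 5 without arr1/12 replicate 1, 2 without arr1/12 replicate 2, 6 without WT replicate 1, and 3 without WT replicate 2.

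**Figure D2:**
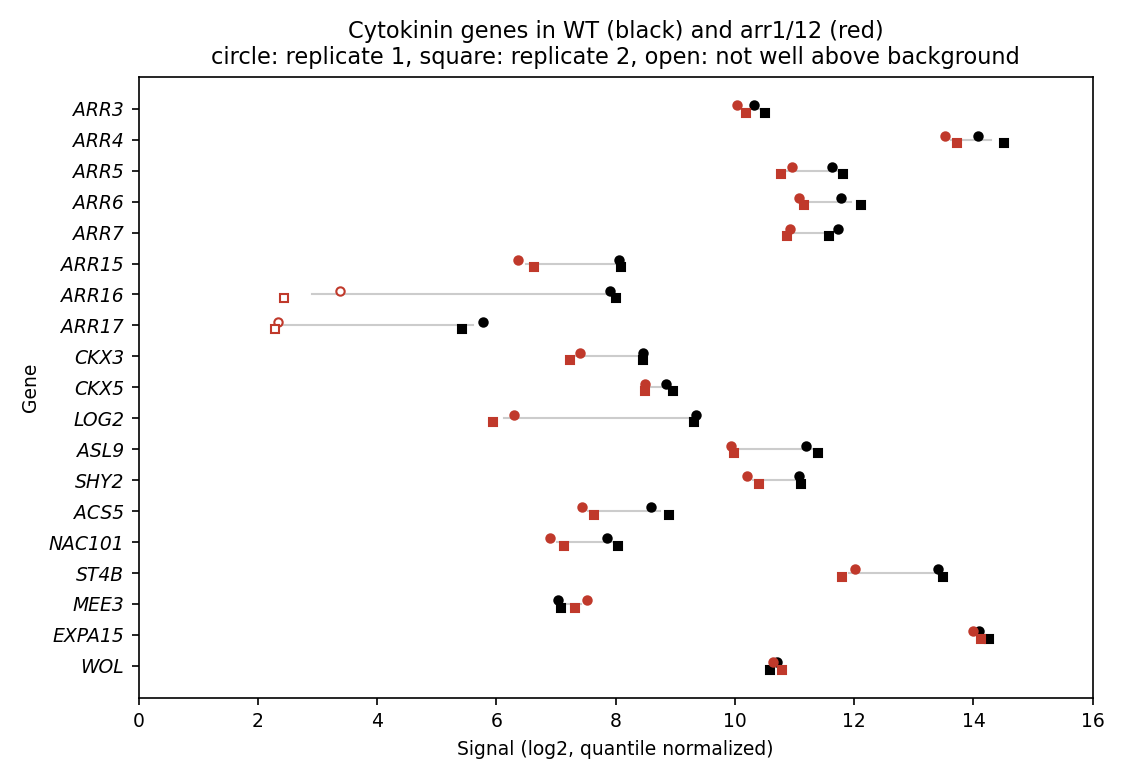
Log2 signal of genes of CK signaling, turnover, and response on the WT arrays (black) and the arr1/12 arrays (red), with a grey line between the group means (circle, replicate 1; square, replicate 2; open, not well above background). ARR16 and ARR17 drop to background, LOG2 falls from 9.35 and 9.31 to 6.29 and 5.95, and the WT and arr1/12 arrays of WOL overlap.

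Upstream of the regulators, WOL (AT2G01830), the CK receptor with a large role in root vascular tissue, averaged 10.65 in WT and 10.71 in arr1/12 on the log2 scale, with 10.59 on the lower WT array and 10.63 and 10.79 on the arr1/12 arrays. The groups overlapped, and the log2 fold change was 0.07 (standard error 0.12, adjusted p = 0.76). The other receptors and the phosphotransfer proteins were not among the named genes.

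Genes that set the level of the hormone itself also moved. CKX3 (AT5G56970), a CK oxidase, had 8.46 on both WT arrays and 7.40 and 7.24 on the arr1/12 arrays, and was 2.21-fold lower (adjusted p = 0.00978). CKX5 (AT1G75450), another CK oxidase, was at 8.85 and 8.96 in WT and at 8.49 on both arr1/12 arrays, a log2 fold change of −0.42 that did not pass the test (adjusted p = 0.219). Both oxidases thus had lower signals on both arr1/12 arrays, and the fall was called for CKX3 only. LOG2 (AT2G35990) belongs to the LONELY GUY family, whose enzymes release active CK from its nucleotide precursors. Its signal was 9.35 and 9.31 in WT and 6.29 and 5.95 in arr1/12, 9.26-fold lower (standard error 0.26 on the log2 scale, adjusted p = 0.000709), and the call held in all 4 fits that left out 1 array. LOG2 was not in the list of CK metabolism genes and was named as one of the 15 largest falls.

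Among 7 named genes that respond to CK downstream, 5 (71.4%) were lower and none was higher, with a median of −0.93. In the list of lower genes 26.5% were called lower, with a median of −0.43. ASL9 (AT1G16530), a LOB-domain transcription factor gene that is a known early CK target, had a log2 signal of 11.19 and 11.39 in WT and 9.94 and 9.98 in arr1/12 (2.51-fold lower, adjusted p = 0.00247). SHY2 (AT1G04240) had 11.08 and 11.11 in WT and 10.20 and 10.41 in arr1/12 (1.73-fold lower, adjusted p = 0.00889). ACS5 (AT5G65800), which encodes an ACC synthase of the ethylene synthesis pathway that is stabilized by CK, had 8.59 and 8.89 in WT and 7.43 and 7.63 in arr1/12 (2.31-fold lower, adjusted p = 0.0258). In each of these genes both arr1/12 arrays were the low ones. NAC101 (AT5G62380), also known as VND6, a switch of xylem vessel formation, was 1.91-fold lower (adjusted p = 0.0231), and ST4B (AT1G13420), a sulfotransferase, was 2.89-fold lower (adjusted p = 0.0422). Of the 5 calls, that of ASL9 held in all 4 fits that left out 1 array, and those of ACS5, NAC101, and ST4B held in none of them.

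MEE3 (AT2G21650) and EXPA15 (AT2G03090), an expansin that loosens the cell wall, did not pass the test. Their log2 fold changes were 0.36 (adjusted p = 0.393) and −0.12 (adjusted p = 0.551). MEE3 had 7.03 and 7.09 in WT and 7.52 and 7.31 in arr1/12, so that both arr1/12 arrays lay above both WT arrays. Of the list of lower genes 26.5% were called lower, and of all probes 3.40%. Over all CK lists together, with the mutated genes included, 15 of 21 named genes (71.4%) were lower and none was higher. This count was 8 without arr1/12 replicate 1, 5 without arr1/12 replicate 2, and 7 without WT replicate 2.

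These genes were then set beside their response to exogenous CK. WT roots treated for 1 hour with 5 μM BA were compared with mock-treated WT roots, and these 4 arrays are shared with neither group of the arr1/12 comparison. The mock and CK arrays lay on slides of their own, so that slide and treatment cannot be told apart. Of 34034 probes tested with CK, 1202 (3.53%) were higher and 1024 (3.01%) were lower than with mock. Of the probes tested in both comparisons, 1165 (3.44%) were higher with CK and 1006 (2.97%) were lower. Among the 1152 probes lower in arr1/12, 242 were higher with CK, which is 21.0% of the arr1/12 list and 20.8% of the CK list, and 41 were lower with CK (3.56% and 4.08%). Among the 1105 probes higher in arr1/12, 44 were higher with CK (3.98% and 3.78%) and 65 were lower with CK (5.88% and 6.46%). The share of the lower probes that rose with CK was 41.8% with no replicate block and lay between 29.5% and 41.8% in the fits that left out 1 array. Probes that rose with CK had a median log2 fold change of −0.19 in arr1/12, and those that fell with CK had −0.02. Seen the other way, the median log2 fold change with CK was 0.08 for the probes lower in arr1/12, 0.12 for those higher in arr1/12, and 0.03 for all probes.

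All 8 named type-A genes rose with CK. ARR16 had a log2 fold change of 5.87 with CK (adjusted p = 8.77e-07), ARR17 5.43 (adjusted p = 8.29e-06), and ARR15 4.65 (adjusted p = 5.86e-07). These 3 genes also had the largest changes of the type-A genes in arr1/12. LOG2 rose by 3.90 with CK (adjusted p = 0.0046), CKX3 by 3.42 (adjusted p = 2.45e-07), CKX5 by 2.73 (adjusted p = 4.19e-06), and ACS5 by 3.79 (adjusted p = 2.46e-05). For LOG2 and ACS5 the mock arrays were the ones that stood apart. LOG2 had log2 signals of 3.64 and 6.86 with mock, where 1 of 2 arrays was well above background, and 9.25 and 9.05 with CK, which does not exceed its 9.35 and 9.31 in untreated WT. ACS5 had 4.40 and 5.64 with mock and 8.78 and 8.85 with CK, beside 8.59 and 8.89 in untreated WT. The treated arrays were normalized with all 20 arrays and the untreated ones with 16, so levels set across them are approximate. WOL, MEE3, and EXPA15 rose with CK as well, by 1.40, 1.89, and 1.53, but were not called in arr1/12. EXPA15 had 12.89 and 13.09 with mock and 14.44 and 14.59 with CK, beside 14.10 and 14.26 in untreated WT. Of the 516 named genes lower in arr1/12, 147 (28.5%) were higher with CK and 13 (2.52%) were lower, beside 13.7% and 4.11% of all 2020 tested genes with a name.

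**Figure D3:**
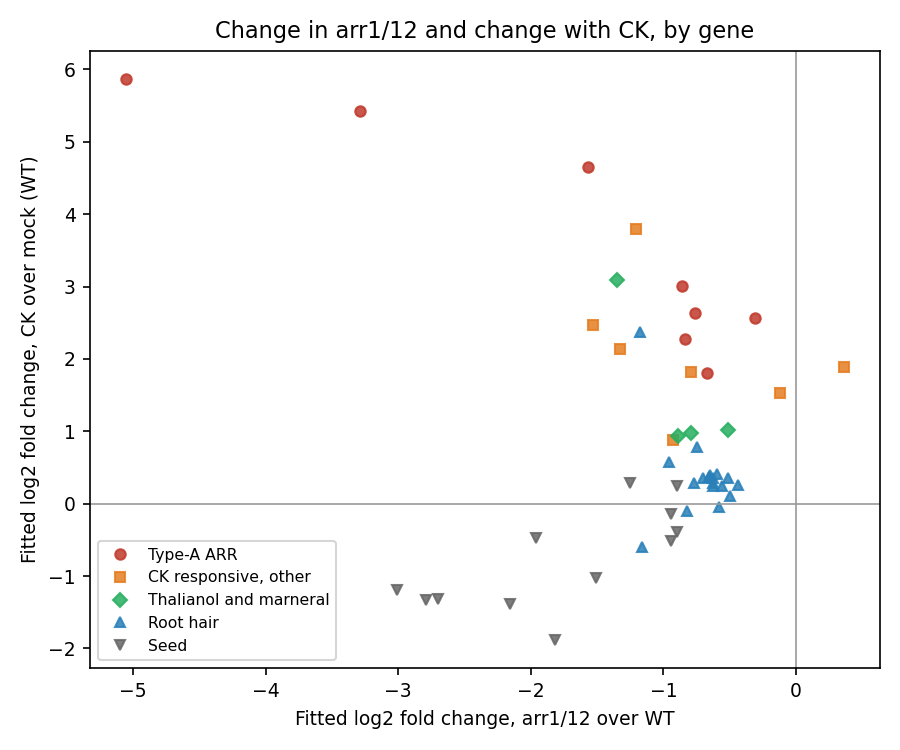
Fitted log2 fold change in arr1/12 over untreated WT (horizontal) and in CK-treated over mock-treated WT (vertical), 1 point per named gene of 5 gene groups. The type-A genes lie at the upper left, the root hair genes at negative values of arr1/12 with a CK response mostly near 0, and the genes of seed maturation at the left with none called higher with CK.

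Of the root hair genes, 6 were lower in arr1/12. Root hairs are outgrowths of single epidermal cells, and their growth is driven by basic helix-loop-helix factors of the RSL family. Of 29 genes in the list, 18 could be named. All 18 had both arr1/12 arrays below both WT arrays, which held for 70.8% of the tested genes in the list of lower genes and for 24.1% of all probes. Most of the 18 had been picked as lower in arr1/12 itself on these same arrays, so their separation was largely fixed by that choice. Their log2 fold changes ranged from −0.44 to −1.18 with a median of −0.64, and 6 of 18 (33.3%) were called lower, beside 26.5% of the list of lower genes. Whole roots were measured, so fewer root hair cells and less RNA per cell cannot be told apart, here or for any other cell type.

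RSL4 (AT1G27740), the transcription factor whose level sets root hair length, had a log2 signal of 11.87 and 12.13 in WT and 11.26 and 11.24 in arr1/12 (1.68-fold lower, adjusted p = 0.0163). RSL2 (AT4G33880), its close relative, had 12.28 and 12.41 in WT and 11.44 and 11.34 in arr1/12 (1.94-fold lower, adjusted p = 0.0473). The WT arrays were the high ones for both factors. RHS2 (AT1G05990), a putative calcium-binding protein of root hairs, had 8.89 and 9.71 in WT and 8.15 and 8.10 in arr1/12 (2.26-fold lower, adjusted p = 0.0291). BST1 (AT5G65090), a phosphatase required for hair growth, was 1.42-fold lower (adjusted p = 0.0285). SYP123 (AT4G03330), a syntaxin of the growing tip, was 1.63-fold lower (adjusted p = 0.044), and GH9C1 (AT1G48930), a glycosyl hydrolase of the cell wall, was 1.47-fold lower (adjusted p = 0.0475). The 2 WT arrays of RHS2 were further apart than those of the other called genes.

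The remaining 12 root hair genes did not pass the test. XTH26 (AT4G28850), a xyloglucan-modifying enzyme, had 10.88 and 11.46 in WT and 10.17 and 9.84 in arr1/12, a log2 fold change of −1.16 (adjusted p = 0.0587). ROPGEF10 (AT5G19560), an activator of the ROP GTPases that mark the site of a hair, had a log2 fold change of −0.63 (adjusted p = 0.0537). The list was sensitive to single arrays and to the processing. No root hair gene was called without arr1/12 replicate 1, without arr1/12 replicate 2, or without WT replicate 2, 2 were called without WT replicate 1, and 1 with no replicate block. The count was 11 with the arr1/10/12 arrays left out of the fit and 14 with array weights. Of the 18 genes, 2 (11.1%) were higher with CK, beside 14.1% of the list of lower genes. These were RSL4, with a log2 fold change of 0.79 (adjusted p = 0.00533), and RHS2, with 2.37 (adjusted p = 0.000683), whose signals with CK (9.04 and 9.06) lay within those of untreated WT.

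The genes of the thalianol pathway were lower in arr1/12. Thalianol is a triterpene made in roots by a set of enzymes whose genes lie side by side. The named genes were consecutive protein-coding genes in the RefSeq annotation, with 0 protein-coding genes between neighbours, and all 4 were lower in arr1/12 and higher with CK. Called lower were 26.5% of the list of lower genes and 3.40% of all probes. All 4 came from that list, CYP708A2 and THAS1 as lower in arr1/12 itself, so their direction is not independent evidence. AT5G47980, an acyltransferase, had a log2 signal of 13.08 and 13.43 in WT and 11.89 and 11.94 in arr1/12 (2.54-fold lower, standard error 0.15 on the log2 scale, adjusted p = 0.00358). CYP705A5 (AT5G47990), a cytochrome P450 of the pathway, had 14.83 and 14.97 in WT and 14.15 and 13.88 in arr1/12 (1.85-fold lower, adjusted p = 0.0103). CYP708A2 (AT5G48000), which hydroxylates thalianol, had 14.87 and 14.78 in WT and 14.22 and 13.85 in arr1/12 (1.73-fold lower, adjusted p = 0.0224). The WT arrays were above the arr1/12 arrays throughout. THAS1 (AT5G48010), the synthase that makes thalianol, had 13.73 and 13.96 in WT and 13.32 and 13.35 in arr1/12 (1.43-fold lower, adjusted p = 0.0301). With CK, AT5G47980 rose by 3.09 on the log2 scale (adjusted p = 3.98e-06), and the log2 fold changes of the others lay between 0.93 and 1.02. CYP705A5 had 13.85 and 14.38 with mock and 15.01 and 15.09 with CK, the latter close to untreated WT. The same held for CYP708A2, with 13.81 and 14.47 with mock and 15.11 and 15.13 with CK. Without 1 array, 2 of these genes were called without arr1/12 replicate 1, 1 without arr1/12 replicate 2, 2 without WT replicate 1, and 1 without WT replicate 2. AT5G47980 was called in all 4 of these fits.

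A second pair of adjacent genes of specialized metabolism, picked after its values were seen, behaved alike. CYP82F1 (AT2G25160), a cytochrome P450, had a log2 signal of 12.85 and 12.93 in WT and 11.68 and 11.80 in arr1/12 (2.21-fold lower, adjusted p = 0.000744). AT2G25150, a transferase next to it, had 10.42 and 10.99 in WT and 8.63 and 9.05 in arr1/12 (3.63-fold lower, adjusted p = 0.0166). Both genes were low on both arr1/12 arrays, and both were higher with CK, by 2.44 (adjusted p = 6.46e-07) and 1.89 (adjusted p = 0.0227) on the log2 scale, although AT2G25150 with CK (11.11 and 10.90) was near untreated WT. YLS9 (AT2G35980), which lies next to LOG2 and is known from senescing leaves and defense, had 12.01 and 12.49 in WT and 9.94 and 10.04 in arr1/12 (4.82-fold lower, adjusted p = 0.004). ABCG30 (AT4G15230), an ABC transporter of roots, had 11.55 and 11.60 in WT and 10.19 and 10.15 in arr1/12 (2.65-fold lower, adjusted p = 9.23e-05). AT4G11190, a dirigent-like protein, had 14.44 and 14.71 in WT and 12.22 and 12.01 in arr1/12 (5.47-fold lower, adjusted p = 0.000157). These genes, also picked after their values were seen, were high on both WT arrays, and the calls of YLS9, ABCG30, and AT4G11190 held in all 4 fits that left out 1 array. With CK they rose by 2.36, 2.12, and 0.94 on the log2 scale.

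Genes of other hormones were examined next. Of 7 named auxin genes, 2 (28.6%) were lower, a share close to the 26.5% of the list of lower genes. IAA6 (AT1G52830) had a log2 signal of 7.08 and 7.18 in WT and 6.26 and 6.12 in arr1/12 (1.92-fold lower, adjusted p = 0.00502), and IAA5 (AT1G15580) had 7.81 and 8.24 in WT and 6.87 and 6.78 in arr1/12 (2.30-fold lower, adjusted p = 0.00889). Both encode auxin-induced repressors of the same family as SHY2, and both were low on both arr1/12 arrays. AXR3 (AT1G04250), another repressor, and IAGLU (AT4G15550), which conjugates auxin to glucose, had log2 fold changes of −0.45 (adjusted p = 0.0628) and −0.56 (adjusted p = 0.0572). IAA5 rose by 2.13 with CK (adjusted p = 1.45e-05), and IAA6 had a log2 fold change of 0.38 with CK (adjusted p = 0.132).

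None of 4 named ethylene genes was called by limma in either direction. EIN3 (AT3G20770), the transcription factor at the end of the ethylene pathway, had 13.44 and 13.38 in WT and 13.66 and 13.75 in arr1/12. Both arr1/12 arrays were above WT, and its log2 fold change of 0.30 missed the threshold (adjusted p = 0.0689). ACS7 (AT4G26200), an ACC synthase, had a log2 fold change of −0.51 (adjusted p = 0.0781).

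Of 4 tested genes of abscisic acid (ABA) metabolism, 3 were lower, beside 26.5% of the list of lower genes and 3.40% of all probes. The 3 lower genes had been picked as lower in arr1/12 itself on these same arrays, so the count is not independent evidence. NCED2 (AT4G18350), which cleaves carotenoids in the first committed step of ABA synthesis, had a log2 signal of 6.22 and 6.43 in WT and 5.40 and 5.39 in arr1/12 (1.90-fold lower, adjusted p = 0.00172), and its call held in all 4 fits that left out 1 array. NCED9 (AT1G78390), of the same family, was 1.89-fold lower (adjusted p = 0.0332). CYP707A1 (AT4G19230), which breaks ABA down, was 1.57-fold lower (adjusted p = 0.0298). The called genes thus included both synthesis and breakdown, but the calls of NCED9 and CYP707A1 did not hold in all fits that left out 1 array. NCED3 (AT3G14440), the stress-induced member, had 7.60 and 8.56 in WT and 7.80 and 8.26 in arr1/12, where the groups overlapped (log2 fold change −0.05, adjusted p = 0.88).

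Of 7 named transporters of the nitrate and peptide transporter families, 4 (57.1%) were lower, beside 26.5% of the list of lower genes and 3.40% of all probes. Most of the 7 had been picked as lower in arr1/12 itself on these same arrays, so the count is not independent evidence. AT3G21670, a nitrate transporter, had a log2 signal of 9.44 and 9.40 in WT and 7.70 and 7.67 in arr1/12 (3.32-fold lower, adjusted p = 0.00634). AT3G53960, of the proton-dependent oligopeptide transporter family, had 8.09 and 8.31 in WT and 6.64 and 7.22 in arr1/12 (2.41-fold lower, adjusted p = 0.0011). Each was low on both arr1/12 arrays. AT1G22550 and AT3G45700, of the same family, were 1.43-fold (adjusted p = 0.0138) and 1.44-fold lower (adjusted p = 0.0393). The calls of AT3G21670, AT1G22550, and AT3G45700 did not hold in all fits that left out 1 array. NRT2.1 (AT1G08090), the main high-affinity nitrate transporter of roots, had a log2 fold change of 0.22 (adjusted p = 0.401).

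Smaller lists held few calls. Their named members below had been picked as lower in arr1/12 itself on these same arrays, so the counts are not independent evidence. Of the list of lower genes, 26.5% were called lower. PAP24 (AT4G24890), a purple acid phosphatase, was not well above background on either arr1/12 array and was 2.46-fold lower by those dim signals (adjusted p = 0.0383). SPX3 (AT2G45130) and the noncoding RNA AT4 (AT5G03545), both induced by phosphate starvation, did not pass the test (adjusted p = 0.173 and 0.162). Of 3 galactinol synthases, which start the synthesis of raffinose sugars, GolS4 (AT1G60470) was 2.38-fold lower (adjusted p = 0.0281). GolS2 (AT1G56600) had 9.73 and 9.82 in WT and 8.49 and 8.47 in arr1/12, and its log2 fold change of −1.29 did not pass the test (adjusted p = 0.0734). Of 6 flavonoid and phenylpropanoid genes, 3 were lower, namely the glycosyltransferases AT1G06000 (1.44-fold, adjusted p = 0.0103) and UGT78D2 (AT5G17050; 1.51-fold, adjusted p = 0.014) and the laccase LAC1 (AT1G18140; 1.41-fold, adjusted p = 0.0383). All 3 named xylem genes were lower. TED6 (AT1G43790), needed for the secondary wall of vessels, was 1.44-fold lower (adjusted p = 0.0179), FLA11 (AT5G03170), a fasciclin-like protein of secondary walls, 1.47-fold (adjusted p = 0.0362), and XSP1 (AT4G00230), a serine peptidase of xylem, 2.02-fold (adjusted p = 0.0418). None of the 3 calls held in any of the 4 fits that left out 1 array. None of these genes was called with CK, where their log2 fold changes were −0.30, 0.01, and 0.01.

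**Figure D4:**
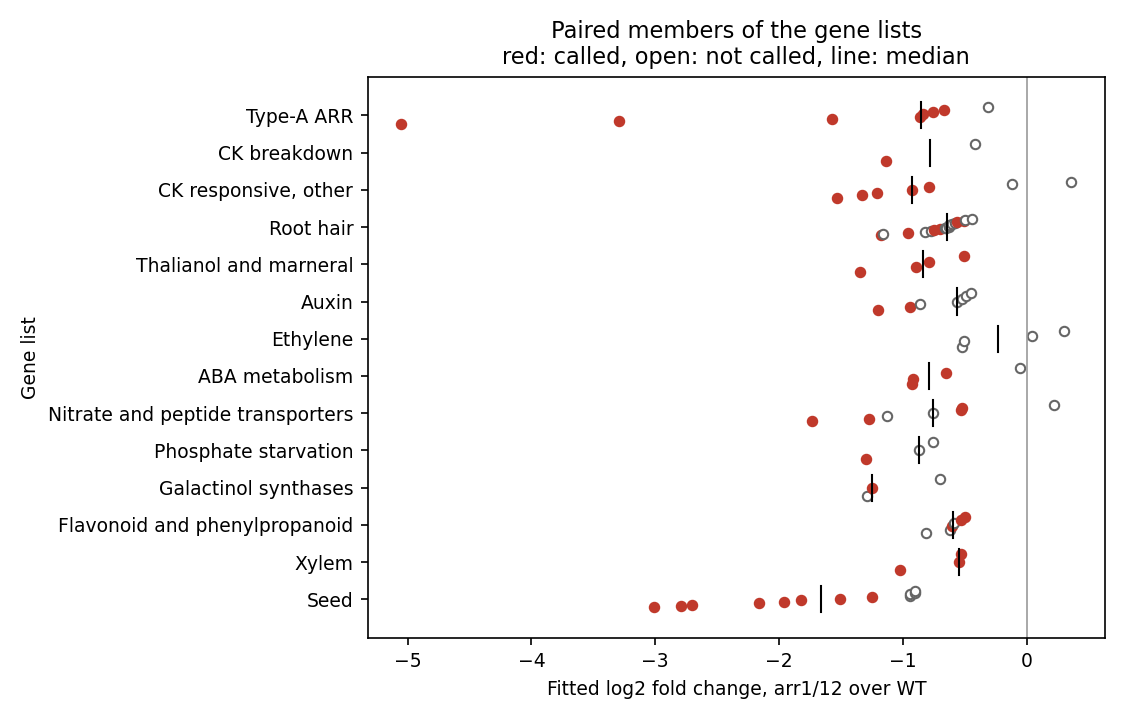
Fitted log2 fold change in arr1/12 over WT for each named and tested gene of 14 gene lists (red, called at an adjusted p under 0.05; open, not called; black line, median of the list). The medians lie below 0 in every list shown, and ARR16, at −5.05 on this fitted scale, is the leftmost point.

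Over all lists, 42 of 81 tested genes were lower and none was higher. The named genes come almost all from a list of genes chosen as lower, of which 26.5% were called lower in arr1/12 with a median of −0.43. Many listed genes had been chosen as lower in arr1/12 itself. The direction of these lists is therefore not independent evidence. The count was 15 without arr1/12 replicate 1, 10 without arr1/12 replicate 2, 25 without WT replicate 1, 11 without WT replicate 2, and 22 with no replicate block.

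A group of genes of seed maturation was also lower, and was gathered after its values were seen. Such genes are switched on late in embryo development and are largely silent in seedlings. Of 21 genes gathered, 12 could be named, and 8 of these (66.7%) were lower and none was higher. The share was 26.5% for the list of lower genes and 3.40% for all probes. The named genes were almost all picked as lower on these same arrays, so the direction of the group is not independent evidence. Without 1 array the count was 1 or 2. The call of OBAP1A (AT1G05510) held in all 4 such fits, and 6 of the 8 calls held in none. GASA3 (AT4G09600), a small cysteine-rich peptide, had a log2 signal of 5.72 and 6.12 in WT and 2.22 and 3.59 in arr1/12, at least 7.94-fold lower (adjusted p = 0.0104). TIP3;2 (AT1G17810), a water channel of the seed vacuole, had 4.88 and 5.44 in WT and 2.24 and 2.50 in arr1/12, at least 4.81-fold lower (adjusted p = 0.0214). OLEO1 (AT4G25140), a coat protein of oil bodies, had 6.07 and 5.80 in WT and 3.92 and 4.30 in arr1/12, 3.53-fold lower by dim signals (adjusted p = 0.0219). These 3 genes were dim in WT and not well above background in arr1/12, and 6 of the 8 called genes were at background on both arr1/12 arrays. TIP3;1 (AT1G73190), a paralog of TIP3;2, stayed measurable, with 8.45 and 8.55 in WT and 6.68 and 7.31 in arr1/12 (2.84-fold lower, adjusted p = 0.0185). PER1 (AT1G48130), a seed peroxiredoxin, had 9.24 and 8.54 in WT and 7.26 and 8.64 in arr1/12. Its groups overlapped, and it was not called (adjusted p = 0.27).

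Across genotypes, TIP3;1 had fitted log2 fold changes against the same WT arrays of −1.51 in arr1/12, 0.23 in arr10/12, and 4.14 in arr1/10/12, and −1.14 in arr1/10, where it did not pass the test (adjusted p = 0.0533). OLEO1 was not well above background on either array of arr1/12 or arr1/10, so no fold is compared there, and its log2 fold change was 0.04 in arr10/12 and 5.63 in arr1/10/12. Both genes thus had higher signals in the mutant of all 3 regulators than in WT. None of the 12 was higher with CK. OLEO1 was called lower with CK (adjusted p = 0.0272), but was well above background on 1 of 2 mock arrays and on neither CK array.

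The 15 largest falls among named genes held ARR12, ARR1, ARR16, ARR17, LOG2, and GASA3, described above, and 9 other genes. AT4G00130, a gene of unknown function, had a log2 signal of 8.14 and 8.70 in WT and 4.55 and 4.58 in arr1/12, where it was not well above background. By those dim signals it was 14.4-fold lower (adjusted p = 0.000333). It had been picked as changed in each single mutant on these same arrays. Its log2 fold change was −2.00 in arr12 (adjusted p = 0.0369 from limma), −1.87 in arr1/10, and −2.06 in arr10/12. The changes of −1.06 on the arrays labelled arr1 and −1.44 in arr10 did not pass the test. EXPB2 (AT1G65680), a beta-expansin of the cell wall, had 6.18 and 6.45 in WT and 3.60 and 2.44 in arr1/12, at least 6.74-fold lower (adjusted p = 0.00889). AT3G28570, an AAA-type ATPase, was at least 6.41-fold lower (adjusted p = 0.0221). Each of these genes dropped to background on both arr1/12 arrays.

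The 6 other genes of the largest falls were also lower on the arrays labelled arr1 and in arr12. They had been picked as changed in each single mutant on these same arrays. AT3G28899 had a log2 signal of 10.38 and 10.18 in WT and 5.67 and 5.81 in arr1/12 (23.3-fold lower, adjusted p = 0.00219). Its fitted log2 fold change was −4.54 in arr1/12, −3.73 on the arrays labelled arr1, and −4.50 in arr12, all against the same WT arrays. AT5G24240 had 11.56 and 11.53 in WT and 8.66 and 8.46 in arr1/12 (7.91-fold lower, adjusted p = 0.00161), with log2 fold changes of −2.98, −2.94, and −3.03 in the same order. The WT arrays were thus the only high ones among these 4 groups. Both genes were as low where ARR1 and ARR12 are intact, in arr10, with log2 fold changes of −4.24 and −2.99. In arr1/10 and arr10/12 they changed by −4.14 and −4.71 (AT3G28899) and by −3.37 and −3.09 (AT5G24240). SADHU3-2 (AT3G42658), a transposable element gene, was 8.61-fold lower in arr1/12 (adjusted p = 0.00219), with log2 fold changes of −3.11 there, −2.15 on the arrays labelled arr1, and −3.66 in arr12. In arr10 it changed by −2.99. LCR30 (AT3G43505) and LCR83 (AT5G54225), genes of small cysteine-rich proteins, were at least 11.7-fold (adjusted p = 0.0092) and at least 6.29-fold lower (adjusted p = 7.58e-06), and AT5G24250, a gene of unknown function with a number close to that of AT5G24240, was at least 8.22-fold lower (adjusted p = 0.000117). LCR83 and AT5G24250 were not well above background on any mutant array, and LCR30 was well above it on 1 arr10 array only. LCR30 and LCR83 were not well above background on the mock-treated and CK-treated WT arrays either, so that their high signal was seen on the untreated WT arrays and was not shared by all WT arrays (LCR83 had 4.53 on mock replicate 1 and 2.31 to 2.45 on the other 3 treated arrays). AT5G24250 and AT5G24240 were well above background on all 4 of those arrays.

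Named genes that rose were few, since only 75 genes of the higher list could be paired with a probe. Of the 73 tested, 27 were higher in arr1/12, beside 3.27% of all probes. All 27 had been picked as changed on the arrays labelled arr1 of this series. They are thus a preselected part of the rises in arr1/12, and their direction is not independent evidence. AT1G63057 and AT1G63055, whose loci overlap so that their signals cannot be told apart, had the largest rises. AT1G63055 had a log2 signal of 6.71 and 6.94 in WT and 9.81 and 9.52 in arr1/12 (7.16-fold higher, adjusted p = 0.0098), and AT1G63057 was 7.66-fold higher (adjusted p = 0.00942). Both were high on both arr1/12 arrays. BOR5 (AT1G74810), of the borate transporter family, had 4.99 and 5.48 in WT and 6.82 and 6.87 in arr1/12 (3.05-fold higher, adjusted p = 0.0177). EXPA12 (AT3G15370), an expansin, had 5.14 and 6.08 in WT and 7.23 and 7.09 in arr1/12 (2.93-fold higher, adjusted p = 0.0197), and it rose with CK as well, by 2.80 on the log2 scale (adjusted p = 0.000129). Neither gene had overlapping groups.

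Regulators and enzymes followed. MYBL2 (AT1G71030), a repressor of anthocyanin synthesis, had a log2 signal of 5.84 and 6.65 in WT and 7.38 and 7.65 in arr1/12 (2.41-fold higher, adjusted p = 0.0041). The transcription factor bZIP48 (AT2G04038) was 2.78-fold higher (adjusted p = 0.0281). PIF4 (AT2G43010), a growth-promoting factor of light and temperature signaling, was not well above background on the WT arrays. By those dim signals it was 2.25-fold higher (adjusted p = 0.047), a call that held in 2 of 15 alternative settings. AT1G19530, of unknown function, had 10.40 and 10.32 in WT and 11.76 and 11.49 in arr1/12 (2.40-fold higher, adjusted p = 0.000378). MYBL2 and AT1G19530 were called in all 4 fits that left out 1 array, and both had their low values in WT. UMAMIT19 (AT1G21890), of a family of amino acid exporters, was 2.38-fold higher (adjusted p = 0.0422), SULTR1;3 (AT1G22150), a sulfate transporter, 2.01-fold (adjusted p = 0.0152), and AGT (AT2G13360), a photorespiratory aminotransferase, 2.02-fold (adjusted p = 0.014). PYD4 (AT3G08860), an aminotransferase of pyrimidine breakdown, was 1.78-fold higher (adjusted p = 0.0147), and the 3 other genes, AT2G33830, AT2G04190, and the wall-associated kinase WAK4 (AT1G21210), were between 1.67-fold and 1.89-fold higher. With CK, AT1G19530, AT2G33830, and PYD4 were lower, with log2 fold changes of −1.33, −1.08, and −0.87.

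The double mutant was next compared directly with each single mutant, without WT. Of 33834 probes, 197 (0.582%) were lower and 82 (0.242%) higher in arr1/12 than on the arrays labelled arr1, which showed no loss of ARR1. Against arr12, 379 (1.12%) were lower and 198 (0.585%) higher. Single arrays moved the second count in both directions, to 1358 lower and 817 higher without arr12 replicate 2, 70 and 76 without arr12 replicate 1, 71 and 73 without arr1/12 replicate 1, and 54 and 83 without arr1/12 replicate 2. LOG2 was lower in arr1/12, with a log2 difference of −3.08 to the arrays labelled arr1 (standard error 0.26, adjusted p = 0.00133) and of −3.14 to arr12 (adjusted p = 0.00122). All 4 thalianol genes were lower than in both, with differences of −0.82 to −1.17 to the arrays labelled arr1 and of −1.01 to −1.62 to arr12. ARR15 differed by −1.36 (adjusted p = 0.0407) and −1.24 (adjusted p = 0.0394), and ARR4 by −0.48 (adjusted p = 0.0411) and −0.68 (adjusted p = 0.00861). ASL9 and CKX3 were lower than in arr12, with differences of −1.39 (adjusted p = 0.0029) and −1.28 (adjusted p = 0.00928), and were not called against the arrays labelled arr1. ARR15, CKX3, CYP708A2, and THAS1 had been picked as lower in arr1/12 and unchanged in the singles on these same arrays. Falls below the singles at these genes were thus largely fixed by that choice.

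The change in arr1/12 was also set against the sum of the changes of the arrays labelled arr1 and arr12, which is a test of whether the double mutant differs from both singles added up. Of all probes, 79 (0.233%) were lower than the sum and 35 (0.103%) higher, and these counts were 1167 and 1157 without arr12 replicate 2. LOG2 had log2 fold changes of −0.13, −0.07, and −3.21 in the arrays labelled arr1, arr12, and arr1/12, and the last differed from the sum by −3.01 (standard error 0.37, adjusted p = 0.0165). AT5G47980 had −0.17, 0.28, and −1.35, and differed from the sum by −1.45 (standard error 0.21, adjusted p = 0.0366). ABCG30 had −0.03, −0.17, and −1.41, and differed from the sum by −1.20 (adjusted p = 0.00448). These 3 genes were thus low in arr1/12 and near WT on the other 4 arrays. CYP705A5, THAS1, and CYP82F1 differed from the sum by −1.26 (adjusted p = 0.0344), −1.32 (adjusted p = 0.0114), and −1.34 (adjusted p = 0.0055), while CYP708A2 missed the threshold (−1.11, adjusted p = 0.0672). ARR5 and ARR7 gave no call against the sum, with differences of 0.08 (standard error 0.15, adjusted p = 0.811) and 0.51 (standard error 0.19, adjusted p = 0.215). Since the arrays labelled arr1 showed no loss of ARR1, the sum cannot be read as that of both single losses. All genes named here had also been picked by their changes in the mutants on these same arrays. THAS1, CYP708A2, and CYP82F1 had been picked as lower in arr1/12 and unchanged in the singles. Their difference from the sum was thus largely fixed by that choice.

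**Figure D5:**
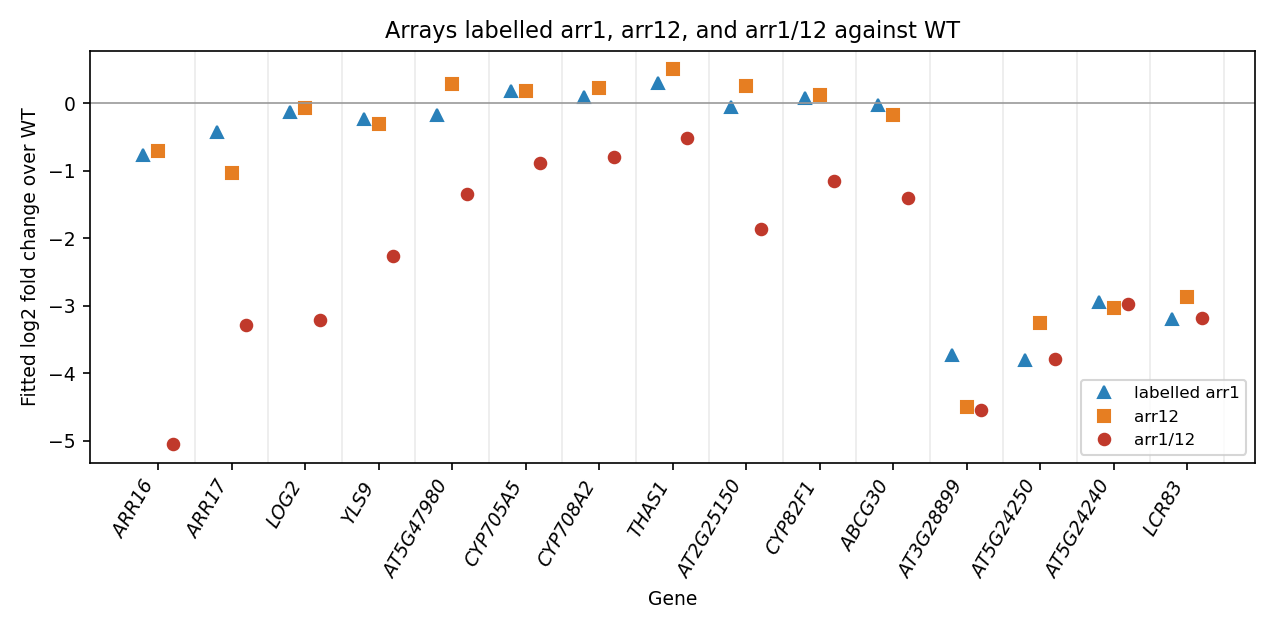
Fitted log2 fold change over WT on the arrays labelled arr1 (triangles), in arr12 (squares), and in arr1/12 (circles), all against the same 2 WT arrays, for 15 named genes. The first 11 genes have their lowest value in arr1/12, and the last 4 (AT3G28899, AT5G24250, AT5G24240, and LCR83) are low in all 3 sets of arrays, with AT5G24250 and LCR83 at background in each.

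Among the double mutants, arr1/12 was compared with arr1/10 and arr10/12. Against arr1/10, 39 probes (0.115%) were lower and 29 (0.0857%) higher, and against arr10/12, 150 (0.443%) were lower and 73 (0.216%) higher. LOG2 was lower in arr1/12, with a log2 difference of −1.90 to arr1/10 (adjusted p = 0.0293) and of −2.42 to arr10/12 (adjusted p = 0.0041). In the same order the differences were −1.92 (adjusted p = 0.0158) and −1.63 (adjusted p = 0.0181) for ARR15, −0.82 (adjusted p = 0.0056) and −1.23 (adjusted p = 0.000308) for ABCG30, and −0.75 (adjusted p = 0.0182) and −1.29 (adjusted p = 0.000509) for CYP82F1. These genes were therefore lower in arr1/12 than in either other double mutant. ARR15 and CYP82F1 had been picked as lower in arr1/12 and unchanged in the other double mutants on these same arrays. Their place among the double mutants was thus largely fixed by that choice. The 4 thalianol genes, ASL9, CKX3, IAA5, and IAA6 were lower than in arr10/12, with differences of −0.71 to −1.30, and were not called against arr1/10. CYP708A2, THAS1, CKX3, and IAA6 had been picked in the same way as ARR15.

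Of the probes that could not be paired with a gene, 4 were among the 3 largest changes in a direction. Probe A_84_P10661 had a log2 signal of 11.71 and 11.65 in WT and 6.04 and 5.49 in arr1/12 (60.3-fold lower, adjusted p = 4e-06). It changed by −5.49 in arr12, −5.82 in arr10/12, and −6.85 in arr1/10/12 on the log2 scale, and these lines all carry the mutation of ARR12. Probe A_84_P22244 had 3.34 and 2.52 in WT, where it was not well above background, and 12.32 and 12.51 in arr1/12. By the dim WT signals it was 719-fold higher (adjusted p = 1.26e-07). Probe A_84_P21298 had 2.13 on both WT arrays and 9.26 and 9.05 in arr1/12, at least 109-fold higher (adjusted p = 1.26e-07). Both rising probes were high in every mutant, with log2 fold changes from 8.70 to 9.57 and from 5.95 to 7.17 over the 7 mutants, and were as low in mock-treated and CK-treated WT as in untreated WT. Probe A_84_P764668 was high in arr1/12 alone among the genotypes. It had 2.20 and 2.24 in WT and 8.72 and 7.22 in arr1/12, at least 48.2-fold higher (adjusted p = 0.001), while its log2 fold change in the 6 other mutants lay between 0.01 and 0.57. Direct contrasts of arr1/12 with arr1, arr12, arr1/10, and arr10/12 at this probe gave adjusted p-values from 0.00139 to 0.00263.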

How the data were processed

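Root RNA was measured on 20 Agilent 1-colour arrays. Per the file headers, the authors deposited scanner output in which each of 62976 spots has a background-subtracted intensity with no scaling across arrays. A value table, deposited as log2 values, served as an alternative. It could be rebuilt by quantile normalization of log2 median pixel intensities, with untreated and treated arrays apart (largest difference 5e-09). Here, intensities of the 61657 non-control spots of the 16 untreated arrays were log2 transformed and quantile normalized, spots marked as outliers (1 to 173 on an untreated array) were dropped, and repeated spots were averaged by probe (43603 probes, 25549 of them on 1 spot). No spot was saturated. A probe entered the test if 1 or more untreated groups had it well above background on both arrays, which left 33834.

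limma 3.58.1 in R 4.3.3 (lmFit, eBayes) fitted 8 groups with the replicate number as block (7 residual and 2.05 prior degrees of freedom, median standard error 0.124), with calls at a Benjamini-Hochberg adjusted p under 0.05. The block rests on shared slides and on deviations of replicate 1 that correlated in all 28 pairs of groups (0.167 to 0.515, arr1/12 with WT 0.384). CK was tested in a fit over all 20 arrays with no block. Only 2 arrays per group limit the precision. The fit was tested on simulated data for arr1/12 versus WT, where of 200 altered probes 0 were found at a log2 change of 0.5, 158 at 1 (with 11 false calls), and 183 at 2 (with 8 false calls).

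Genes were named where the 7 mutant-minus-WT means of a supplementary gene table matched exactly 1 spot of the deposited table within 0.0005 (largest distance 5e-05), and 2052 of 2072 have a RefSeq entry (TAIR10.1). The copy of that table holds only part of the lower and of the higher genes. The array files name no genome build, so no coordinates are given. Genes were named by rule, which takes the mutated genes, all CK genes, up to 6 called and 2 other members of each further list, and the 15 largest falls and rises whose groups do not overlap, plus unpaired probes among the 3 largest changes. The text marks genes picked with their values in view. The members and lists were chosen with earlier results of these data known. The alternatives were no replicate block, 75th percentile scaling, the authors' value table, normexp (offset 50), other filters on dim probes, other sets of arrays, array weights, the methods' t-test, and leaving out single arrays.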

Additional observations from a re-analysis of the deposited data

Results flagged for a closer look

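Below are genes whose change in arr1/12 differed from the sum of the changes on the arrays labelled arr1 and in arr12, which is a test of the difference itself in the limma fit. The arrays labelled arr1 showed no loss of ARR1, so these values describe the libraries and not the alleles. The genes had been picked by their changes in the mutants on these same arrays, so the differences are not independent evidence.

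Lower than the sum were ARR16, with a log2 difference of −3.58 (adjusted p = 0.0376), LOG2, with −3.01 (adjusted p = 0.0165), and the thalianol genes AT5G47980, with −1.45 (adjusted p = 0.0366), CYP705A5, with −1.26 (adjusted p = 0.0344), and THAS1, with −1.32 (adjusted p = 0.0114). ARR16 was not well above background in arr1/12, so its difference rests on dim signals. ARR1 itself differed from the sum by −5.01 (adjusted p = 8.01e-07). Its log2 fold change was −4.11 in arr1/12, 0.39 on the arrays labelled arr1, and 0.50 in arr12.

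Higher than the sum was AT5G24240, with 2.99 (adjusted p = 0.0255), a gene also low in arr10 (log2 fold change −2.99). Its log2 fold changes were −2.94 on the arrays labelled arr1, −3.03 in arr12, and −2.98 in arr1/12. AT5G24250, with 3.26, and LCR83, with 2.88, were not well above background in any of these 3 sets of arrays. A gene at background in all of them must come out above the sum, so these 2 values carry no information beyond the fall itself. LCR83 was not well above background in mock-treated or CK-treated WT either. All these comparisons share the same 2 WT arrays, and the part of those arrays in the values was not tested.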

How the results depend on the processing

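None of the 78 called genes examined changed direction under any alternative, none kept its call under every alternative, and 21 kept it in all 4 fits that left out 1 array of arr1/12 or WT. Among genes not called, the log2 fold change turned sign for WOL (−0.09 without WT replicate 2, up to 0.22 without other arrays), NCED3 (0.03 without arr1/12 replicate 2 and 0.15 without WT replicate 2, down to −0.25), and AT5G44310 (0.05 without arr1/12 replicate 1, down to −1.85).

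The numbers of probes lower and higher in arr1/12 than in WT were 292 and 237 with no replicate block, 716 and 677 with no filter on dim probes, 2067 and 2069 without the arr1/10/12 arrays, 7 and 4 with only the 4 arrays of the comparison, 1987 and 1849 with array weights, and 1871 and 1841 by the methods' t-test unadjusted. After Benjamini-Hochberg adjustment the methods' t-test called 0 and 0, beside 8998 probes at an unadjusted p under 0.05 in limma. Leaving out 1 array gave 98 to 481 lower and 114 to 394 higher probes. The other alternatives (75th percentile scaling, normexp, the authors' value table, probes well above background on all 16 arrays, and all 20 arrays) stayed within 1.5 times the main counts.

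With no replicate block, 87 probes were lower and 38 higher than on the arrays labelled arr1, 141 and 81 than in arr12, and 31 and 18 than the sum of both. Leaving out 1 array gave 24 to 74 and 11 to 65 against the arrays labelled arr1, 54 to 1358 and 73 to 817 against arr12, and 18 to 1167 and 12 to 1157 against the sum, with the high ends of the comparisons with arr12 and with the sum without arr12 replicate 2. The cause was not tested.

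ARR1 kept its value of −4.11 but not its call by the methods' t-test with adjustment, and ARR12 lost its call there (−6.63) and with only 4 arrays (−6.67, adjusted p = 0.052). The number of listed genes lower was 22 with no replicate block, 1 with only the 4 arrays, and 10 to 25 without 1 array. For the CK lists it was 1 with only the 4 arrays and 5 to 11 without 1 array. For type-A genes it was 4 among probes well above background on all 16 arrays, which drops ARR16, ARR17, and ARR15, 0 with only the 4 arrays, and 2 to 6 without 1 array. For root hair genes it was 1 with no replicate block, 10 with normexp and with the authors' table, 3 with no filter, 11 without the arr1/10/12 arrays, 14 with array weights, 0 with only the 4 arrays, and 0 to 2 without 1 array. For thalianol genes it was 0 with only the 4 arrays and 1 to 2 without 1 array. The methods' t-test with adjustment called 0 in each of these lists. The share of lower probes that rose with CK was 41.8% with no replicate block and 29.5% to 41.8% without 1 array. The planned normexp on mean signals was not run, because the array files hold medians, which were used instead, as chosen after seeing the data, like the leave-one-out fits of the sum and the alternatives for the CK share. Probes near background, such as ARR16 and the seed genes, allow only approximate bounds.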
